A study of Homo sapiens with 54 samples.

Results

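Olaparib, an inhibitor of PARP enzymes, and CDDP (cisplatin), a platinum compound that crosslinks DNA, were given alone and together to parental MDA-MB-468 cells, and the genes whose level with both drugs departed from the sum of both single-drug changes are described here. MDA-MB-468 is an established triple negative breast cancer line with wild type BRCA1. Of the 54 libraries in the series, 12 were used for this comparison, in 4 groups of 3: untreated control, 3 µM olaparib, 2.5 µM CDDP, and 3 µM olaparib + 2.5 µM CDDP. All 4 groups were parental cells grown in the same serum-supplemented medium, and treatment lasted overnight. The labels do not name a vehicle in the control and do not say whether the 3 libraries of a group came from separate cultures, so the p-values measure only the spread between these libraries, which may be technical.

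For each gene the interaction was calculated as the log2 change caused by olaparib in the presence of CDDP minus the log2 change caused by olaparib in its absence. An interaction of 0 means that both log2 changes add up, a positive interaction that the level with both drugs was higher than their sum, and a negative interaction that it was lower. Testing was not limited to chosen genes. Of the 27470 genes in the table, the 13012 that reached 10 in 3 or more libraries were tested. An interaction was called at an adjusted p at or under 0.05 (limma with Benjamini-Hochberg adjustment). The gene lists described below were chosen with earlier results of these data known, and those of small RNAs after the values were seen. PARP1, PARP2 and BRCA1 were also named by choice. The values are adjusted read counts, that is, reads per gene that the authors had scaled with edgeR to a common library size of 5585170. Libraries held 6174804 to 9268162 reads, and the correlation of log2 values across genes was 0.9745 to 0.9807 between libraries of the same group and 0.9627 to 0.9773 between libraries of different groups. The epithelial markers EPCAM (2635 to 3154 adjusted read counts) and KRT19 (9303 to 17660) were high in all 12 libraries. Progesterone receptor PGR had no read in any library and estrogen receptor ESR1 had 33.0 to 74.4 adjusted read counts, while none of 4 leukocyte markers exceeded 3 reads.

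PARP enzymes detect DNA strand breaks and recruit repair factors, and olaparib both blocks their activity and traps them on DNA. CDDP forms adducts and crosslinks that stop replication forks and are repaired with the help of the Fanconi anemia and homologous recombination proteins. Cells answer such damage through checkpoint kinases that hold the cell cycle, and other programs, such as the ATF4 response to amino acid shortage and protein stress, can be switched on or off at the same time.

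The combination departed from additivity for 2623 of 13012 genes, which is 20.2% of those tested, and 1059 interactions were positive (8.14%) and 1564 negative (12%). The departure was at least 2-fold for 269 of them, 138 positive and 131 negative. The drug contrasts were read at the same adjusted p together with a change of 2-fold or more, and here olaparib alone changed 226 genes (1.74%, with 85 or 0.653% higher and 141 or 1.08% lower), CDDP alone 337 (2.59%) and the combination 440 (3.38%). Olaparib added to CDDP changed only 57 genes at this threshold (0.438%), of which 17 were higher (0.131%) and 40 lower (0.307%), and CDDP added to olaparib changed 249 (1.91%). The count of 17 was 29 without replicate 1 of 2.5 µM CDDP, and that of 40 was 63 without replicate 1 of the combination.

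Most departures were changes that were smaller with both drugs than the sum of the single drugs, but this was also so for most genes not called. Among the 1059 genes with a positive interaction, the combined change was smaller than the sum in 641 (60.5%), opposite in sign to the sum in 384 (36.3%), and larger than the sum in 34 (3.21%). Among the 1564 with a negative interaction these counts were 858 (54.9%), 613 (39.2%) and 93 (5.95%). The corresponding shares among the 10389 genes not called were 52.9%, 23.0% and 24.1%, and the control libraries enter both the sum and the interaction. Without the fold limit, 12.4% of all genes were higher and 9.11% lower after olaparib alone (21.5% in all), 13.3% higher and 11.8% lower after CDDP alone (25.1% in all), and 4.63% higher and 7.29% lower when olaparib was added to CDDP (11.9% in all). Positive interactions went with falls after the single drugs, with 401 genes significantly lower after both olaparib alone and CDDP alone and 0 higher after both. Negative interactions went with rises, with 685 genes higher after both single drugs and 7 lower after both. For 112 positive genes olaparib lowered the gene in the absence of CDDP and raised it in its presence, and for 291 negative genes the reverse was found. Neither single drug was called but the combination was for 58 positive genes, all 58 higher, and for 180 negative genes, all 180 lower. These directions are largely set by the selection, since the combined change is the interaction plus both single-drug changes. On the linear scale, where the excess over control is added instead of the log2 change, the sign was the same for 1019 positive genes and opposite for 1, with 39 having no value because the expected level was at or under 0, and it was the same for 1563 of 1564 negative genes.

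For every called gene the group standing apart was taken as the one whose removal left the narrowest range among the other 3 group means. The rule names a group for every gene, even where the other 3 means lie far apart. In called genes the side, high or low, went with the sign of the interaction. In positive genes this was a high control in 391, a low olaparib group in 306, a low CDDP group in 200 and a high combination in 162. In negative genes it was a low control in 568, a high olaparib group in 389, a high CDDP group in 176 and a low combination in 431. The gene groups below differed in which library group stood apart, and the plot of the group standing apart gives these shares.

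**Figure D1:**
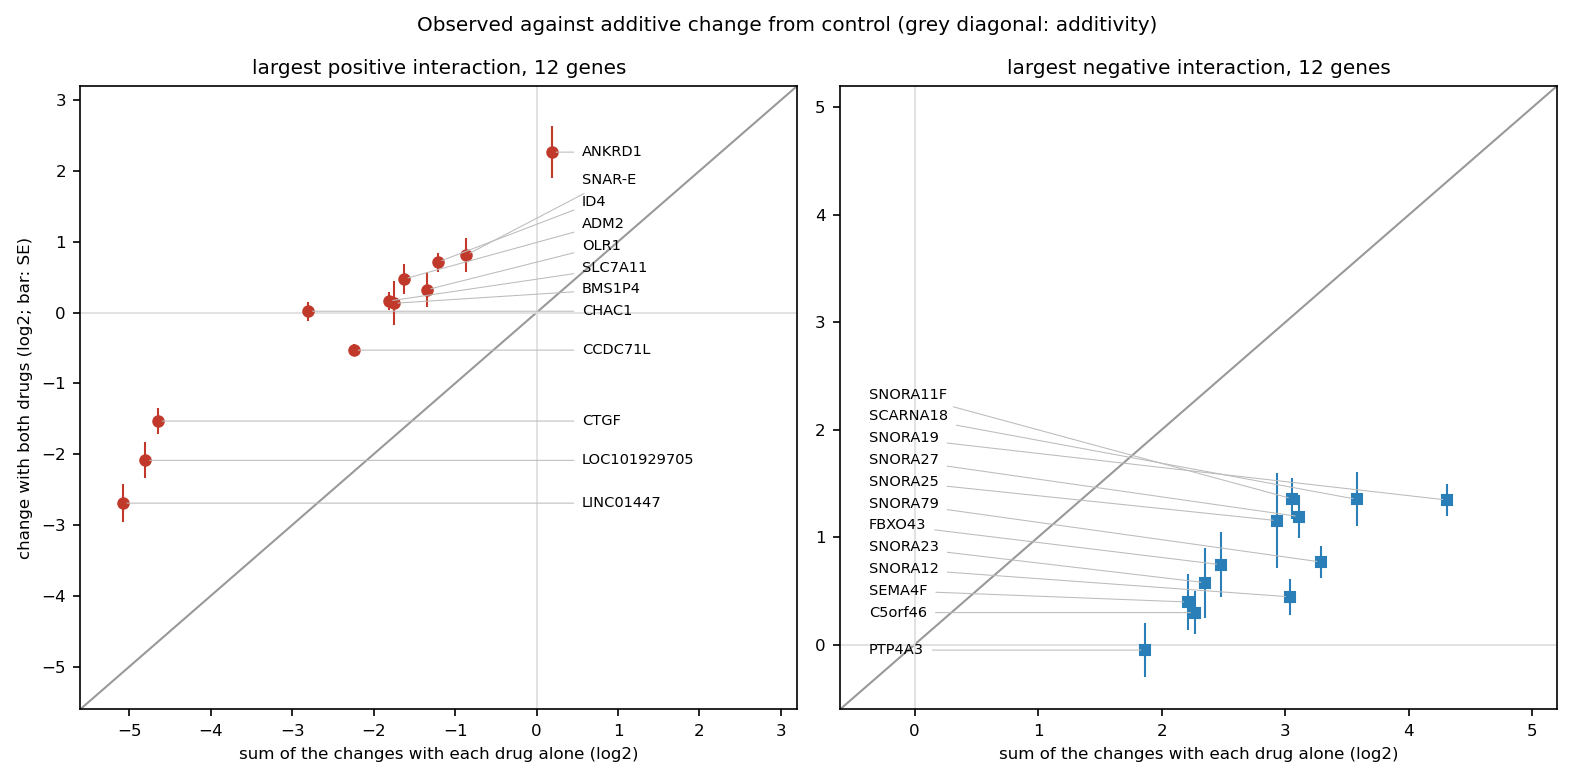
Change with both drugs (y axis, log2 against control, bar: standard error) against the sum of the changes with each drug alone (x axis, log2) for the 12 genes with the largest positive and the 12 with the largest negative called interaction in parental MDA-MB-468. All 12 positive genes lie above the diagonal of additivity and all 12 negative genes below it, as their choice requires, and CHAC1 lies near 0 on the y axis, at 0.02.

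Genes of the ATF4 stress response had the most one-sided positive interactions of the lists examined. Of 20 members tested, 15 were called positive and 0 negative, against 8.14% and 12% of all genes, and the median interaction was 0.94 in the list and -0.004 over all genes tested. The median change of the list from control was -0.83 after olaparib, -0.09 after CDDP and -0.02 after the combination. In all 15 called members the olaparib group was the one standing apart, on the low side. ATF4 is the transcription factor of the integrated stress response, and its targets serve amino acid synthesis, amino acid transport and glutathione turnover.

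CHAC1, a glutathione-degrading enzyme and ATF4 target (chromosome 15, 40952962 to 40956512, plus strand, GRCh38), had 347, 375 and 313 adjusted read counts in the control libraries and 42.2, 58.9 and 44.8 after olaparib. It had 374, 315 and 352 after CDDP and 399, 325 and 327 after the combination. The olaparib libraries lay below all 9 others, which overlapped each other. The interaction was 2.82 (standard error 0.19, adjusted p = 2.96e-16, limma), from a change of -2.81 with olaparib alone and 0.01 with olaparib added to CDDP.

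SLC7A11, the cystine transporter subunit that feeds glutathione synthesis, had 379, 375 and 391 adjusted read counts in the control, 165, 93.7 and 129 after olaparib, 333, 353 and 294 after CDDP, and 412, 438 and 430 after the combination. The olaparib libraries were the lowest and the combination libraries the highest, with no overlap of either with the other groups, and the interaction was 1.98 (standard error 0.17, adjusted p = 8.57e-13, limma). ADM2, a peptide hormone gene, followed the same order, with 27.4 to 53.1 adjusted read counts after olaparib and 145 to 168 after the combination. Its interaction was 2.10 (adjusted p = 6.33e-07, limma). STC2, a secreted glycoprotein induced by stress, fell from a mean of 824 in the control to 252 after olaparib but was at 819 after CDDP and 769 after the combination, with an interaction of 1.61. TRIB3, a pseudokinase that feeds back on ATF4, had an interaction of 1.31, the asparagine synthetase gene ASNS 1.27, and the serine synthesis genes PSAT1 and PHGDH 0.88 and 0.84. The leucine transporter SLC7A5 (1.15), its partner SLC3A2 (1.06) and the mTORC1 inhibitor SESN2 (1.11) were called as well. The calls of XPOT and DDIT3, at 0.95 and 0.94, had adjusted p-values of 0.0320 and 0.0360 (limma), and each lost its call under 8 of 23 alternatives.

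The promoters of CHAC1 and ASNS are shown because the letters TGATGNAA, part of the composite site bound by ATF4 with C/EBP proteins, occur in them. The motif was chosen after the values were seen, both strands were searched, and the windows are the 300 bases around each RefSeq start in GRCh38, from 250 before it. It was found in 3 of 18 list members with a promoter in the table, and in 159 of 10213 tested genes (1.56%), 26 of 846 positive (3.07%) and 16 of 1254 negative genes (1.28%). Capitals mark the match, which begins 209 bases before the start in CHAC1 (chr15:40953221-40953520, plus strand, where it reads as the reverse complement) and 68 bases before it in ASNS (chr7:97872359-97872658, minus strand).
CHAC1: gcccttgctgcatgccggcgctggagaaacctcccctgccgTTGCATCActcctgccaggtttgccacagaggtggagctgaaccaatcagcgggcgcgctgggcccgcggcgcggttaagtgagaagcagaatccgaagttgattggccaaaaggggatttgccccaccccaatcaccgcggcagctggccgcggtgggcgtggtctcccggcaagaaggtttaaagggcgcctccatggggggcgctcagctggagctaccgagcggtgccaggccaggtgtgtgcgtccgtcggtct
ASNS: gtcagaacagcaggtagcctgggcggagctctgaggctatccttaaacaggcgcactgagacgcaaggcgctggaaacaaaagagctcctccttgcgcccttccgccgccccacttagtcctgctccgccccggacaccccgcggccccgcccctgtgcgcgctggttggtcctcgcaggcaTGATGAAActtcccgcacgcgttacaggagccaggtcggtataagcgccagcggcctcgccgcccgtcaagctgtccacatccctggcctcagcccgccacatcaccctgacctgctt
The third member was SLC3A2. A match is a description of the letters and not of binding.

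CTGF, the secreted matrix protein gene also called CCN2 (chromosome 6, 131948176 to 131951372, minus strand), had the largest called positive interaction among genes with a mean of at least 30 adjusted read counts. It had 232, 221 and 195 adjusted read counts in the control, 19.2, 16.4 and 27.1 after olaparib, 88.1, 93.7 and 77.4 after CDDP, and 59.0, 87.7 and 77.8 after the combination. The control libraries were highest and the olaparib libraries lowest, without overlap, and the combination overlapped CDDP alone. The interaction was 3.12 (standard error 0.26, adjusted p = 2.66e-13, limma). CCDC71L, a gene of little known function, had 235 to 273 adjusted read counts after olaparib and 476 to 552 after the combination, against 726 to 793 in the control, with an interaction of 1.71. ANKRD1, a nuclear ankyrin repeat protein that like CTGF is a known target of YAP, behaved differently. It had 19.9, 25.3 and 21.9 adjusted read counts in the control, 3.68, 4.77 and 9.19 after olaparib, 92.0, 86.5 and 103 after CDDP, and 101, 124 and 109 after the combination. CDDP raised it both in the absence and in the presence of olaparib, and olaparib lowered it only in the absence of CDDP (log2 change -1.84, adjusted p = 0.000127, against 0.24, adjusted p = 0.756, limma). Its interaction was 2.08 (adjusted p = 0.00228, limma).

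ID4, an inhibitor of helix-loop-helix transcription factors (chromosome 6, 19837370 to 19842197), crossed from below to above control. It had 268, 257 and 265 adjusted read counts in the control, 102, 95.7 and 67.4 after olaparib, 332, 380 and 318 after CDDP, and 427, 422 and 449 after the combination. None of the 4 groups overlapped, and the interaction was 1.92 (standard error 0.19, adjusted p = 2.04e-11, limma). OLR1, a scavenger receptor for oxidized lipoproteins, had 13.4 to 18.6 adjusted read counts after olaparib and 40.9 to 73.2 in the other 9 libraries, with an interaction of 1.67. The long noncoding RNA LINC01447 had 160 to 188 adjusted read counts in the control and 16.9 to 50.5 in the other 9 libraries, which overlapped, with an interaction of 2.39 (adjusted p = 2.24e-06, limma). The uncharacterized locus LOC101929705 had 480 to 523 in the control and 62.3 to 137 in the others, with an interaction of 2.72. For both, either drug alone and the combination reached a similar low level. The small noncoding RNA gene SNAR-E, a member of a family of near-identical copies among which reads may be split, had 18.5 to 44.3 adjusted read counts after CDDP and 61.1 to 110 after the combination, with an interaction of 1.67. The pseudogene BMS1P4, for which the same limit holds, had an interaction of 1.88.

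**Figure D2:**
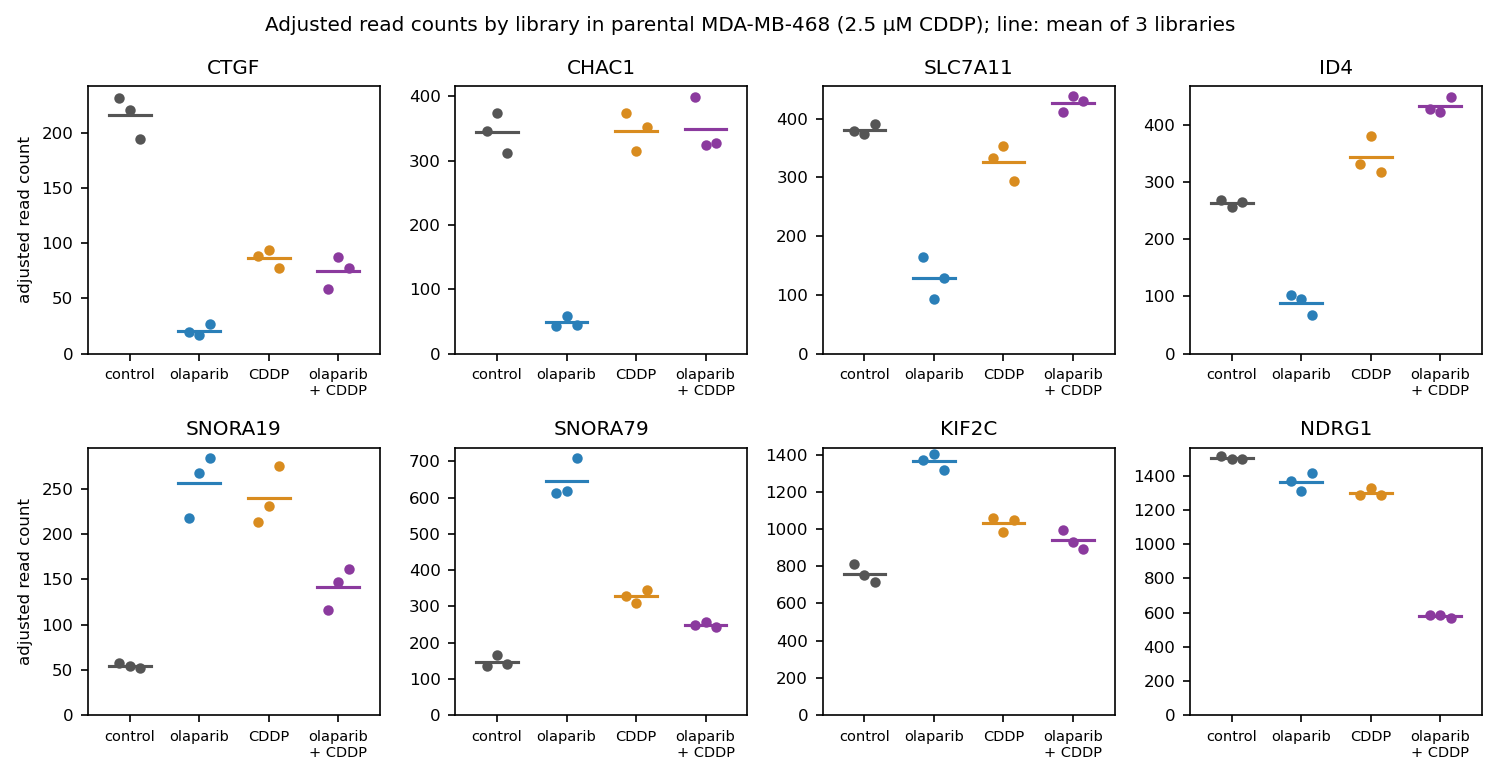
Adjusted read counts (y axis, linear and starting at 0) of 8 genes in each of the 3 libraries of the 4 groups of parental MDA-MB-468, with the mean as a line. CHAC1, SLC7A11 and ID4 have their lowest values after olaparib alone, SNORA19 and SNORA79 their lowest in the control, KIF2C its highest after olaparib, and NDRG1 its lowest with both drugs.

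Of 19 immediate early genes tested, which are switched on within minutes by growth factor and stress kinases, 6 were called positive and 0 negative, against 8.14% and 12% of all genes, with a median interaction of 0.35. The olaparib group stood apart on the low side in all 6 by the rule. In JUN, however, the control mean (657) lay nearer olaparib (442) than CDDP (1615) or the combination (1554). After olaparib alone 11 of the 19 were lower and 0 higher (no fold limit). EGR1, a zinc finger transcription factor, had 736, 828 and 814 adjusted read counts in the control, 319, 281 and 380 after olaparib, 664, 692 and 644 after CDDP, and 736, 701 and 737 after the combination. The olaparib libraries lay below the other 9, and the interaction was 1.41 (standard error 0.18, adjusted p = 3.11e-08, limma). The nuclear receptor NR4A1 had an interaction of 1.43, and the AP-1 subunits JUN and JUNB 0.51 and 0.48. EGR3 (2.82) was called with a mean of 1.82 adjusted read counts after olaparib. Of 15 genes induced by and feeding back on MAP kinase signaling, 3 were positive: the ETS factors ETV4 (1.52) and ETV1 (1.46) and the pleckstrin domain gene PHLDA1 (0.45). The EGR1 promoter is shown because the consensus of the serum response element (letters in capitals) begins 105 bases before its start (chr5:138465229-138465528, plus strand). The same letters, on either strand, were found in 5 of 10213 tested genes (0.049%) and in 2 of 846 positive genes.
EGR1: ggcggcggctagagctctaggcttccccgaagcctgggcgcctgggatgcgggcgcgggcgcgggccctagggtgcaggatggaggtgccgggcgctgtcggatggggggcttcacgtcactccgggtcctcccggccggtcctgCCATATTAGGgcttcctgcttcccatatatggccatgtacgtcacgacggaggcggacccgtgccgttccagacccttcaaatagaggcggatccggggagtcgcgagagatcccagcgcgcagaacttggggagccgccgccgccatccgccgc

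Clustered histone genes, whose mRNAs are mostly made in S phase and mostly lack poly(A) tails, had 8 positive and 1 negative calls among 34 tested, against 8.14% and 12% of all genes, with a median interaction of 0.49. The linker histone gene HIST1H1C had 891, 853 and 780 adjusted read counts in the control, 431, 496 and 607 after olaparib, 896, 858 and 594 after CDDP, and 913, 928 and 958 after the combination, with an interaction of 1.01 (adjusted p = 1.16e-05, limma). Its olaparib and CDDP libraries overlapped, and its combination libraries were the highest. HIST1H4C, by far the most abundant at means of 10980 to 17680, was the negative member (-0.35). Histone genes have near-identical copies, among which reads may be split. Of 137 genes that span at least 500 kb, 12 were positive and 4 negative, shares of 8.76% and 2.92% that lie near and below those of all genes. The median span was 49.9 kb for positive, 17.9 kb for negative and 33.7 kb for uncalled genes.

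Small nucleolar RNAs of the H/ACA class were prominent among the negative interactions. These RNAs guide the conversion of uridine to pseudouridine in ribosomal and spliceosomal RNA, are cut from introns of host genes, and end with an ACA box. By the rule of largest change 8 of the 12 named negative genes were of this class and its Cajal body relatives, and the list of all symbols beginning with SNORA or SCARNA was therefore added after the values were seen. Of its 60 tested members, 26 were called negative and 1 positive (SCARNA3), against 12% and 8.14% of all genes, with a median interaction of -1.36. The median change of the list from control was 1.40 after olaparib, 1.04 after CDDP and 0.84 after the combination, and in 21 of the 26 negative members the control stood apart on the low side. Of 38 tested C/D class members (symbols beginning with SNORD), 2 were negative and 0 positive, fewer than these shares of all genes would give. Their median interaction was still negative, at -0.46. At 1 µM CDDP it was -0.69, with 7 of 38 negative and 0 positive, against 7.06% negative of all genes.

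The sequences of 4 of these genes, read from GRCh38 on the strand given, are shown to make the class visible. Capitals mark the ACA box, which a search for the last ACA found 3 bases from the 3′ end in each.
SNORA19: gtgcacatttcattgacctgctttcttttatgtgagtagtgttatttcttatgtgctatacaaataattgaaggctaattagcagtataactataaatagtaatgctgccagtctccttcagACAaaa
SNORA12: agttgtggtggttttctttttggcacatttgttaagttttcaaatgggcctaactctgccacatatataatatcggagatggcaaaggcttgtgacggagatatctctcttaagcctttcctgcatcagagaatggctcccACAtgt
SNORA79: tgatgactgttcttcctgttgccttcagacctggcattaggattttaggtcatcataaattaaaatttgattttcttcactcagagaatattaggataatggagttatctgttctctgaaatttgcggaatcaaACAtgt
SNORA27: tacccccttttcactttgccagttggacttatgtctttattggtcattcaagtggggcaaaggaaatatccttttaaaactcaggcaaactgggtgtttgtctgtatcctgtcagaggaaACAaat
SNORA19 lies at chr10:119060011-119060138 on the minus strand within EIF3A, SNORA12 at chr10:100237156-100237302 on the minus strand within CWF19L1, SNORA79 at chr14:81202695-81202834 on the minus strand within GTF2A1, and SNORA27 at chr13:27255401-27255526 on the plus strand within RPL21.

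SNORA19 had 57.4, 54.1 and 52.4 adjusted read counts in the control, 218, 268 and 284 after olaparib, 213, 231 and 276 after CDDP, and 116, 147 and 161 after the combination. The control libraries were lowest, both single drugs overlapped at the top, and the combination lay between them without overlap. The interaction was -2.96 (standard error 0.21, adjusted p = 7.49e-16, limma). SNORA12 had 73.9 to 88.3 in the control, 206 to 328 after olaparib, 212 to 230 after CDDP and 93.1 to 120 after the combination, with an interaction of -2.59 (adjusted p = 2.25e-12, limma). SNORA79 had 134 to 166 in the control, 612 to 709 after olaparib, 309 to 344 after CDDP and 243 to 256 after the combination, with no overlap between any groups and an interaction of -2.52. SCARNA18 (-2.23), SNORA27 (-1.92), SNORA23 (-1.77) and SNORA11F (-1.70) were lowest in mean in the control as well. SNORA25 (-1.78, adjusted p = 0.0346, limma) lost its call under 10 of 23 alternatives.

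The host genes varied. For 22 of the 27 called members of the SNORA and SCARNA list a host gene was tested, and of these hosts 2 were called positive and 6 negative, against 8.14% and 12% of all genes, with a median interaction of -0.01 and a range from -0.61 to 0.56. EIF3A, a translation initiation factor subunit that hosts SNORA19, had an interaction of 0.48 (adjusted p = 6.63e-05, limma), opposite in sign to SNORA19. The prohibitin gene PHB2 (-0.61) and the ribosomal protein gene RPSA (-0.59), chosen after their values were seen, were hosts with called negative interactions, the same sign as their small RNAs. GTF2A1, host of SNORA79, had 0.01 and CWF19L1, host of SNORA12, 0.26 (adjusted p = 0.448, limma). The libraries were primed from poly(A), which mature RNAs of this class lack, and their genes span 122 to 270 bases where matched, so a read at such a gene may come from the mature RNA, a precursor or the host intron, and these cannot be told apart.

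Of the other named negative genes, C5orf46, which encodes a small secreted peptide, had 34.4 to 45.3 adjusted read counts in the control, 70.7 to 95.5 after olaparib, 86.4 to 103 after CDDP and 42.1 to 55.4 after the combination, with an interaction of -1.97 (adjusted p = 5.44e-07, limma). The phosphatase gene PTP4A3 rose from a mean of 34.0 to 61.1 after olaparib and 68.3 after CDDP but was at 33.9 after the combination, with an interaction of -1.92. For both genes the single drugs lay above the combination without overlap. The semaphorin gene SEMA4F (-1.82) and FBXO43, an inhibitor of the anaphase-promoting complex (-1.73), had low levels, with group means of 17.3 to 62.3.

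**Figure D3:**
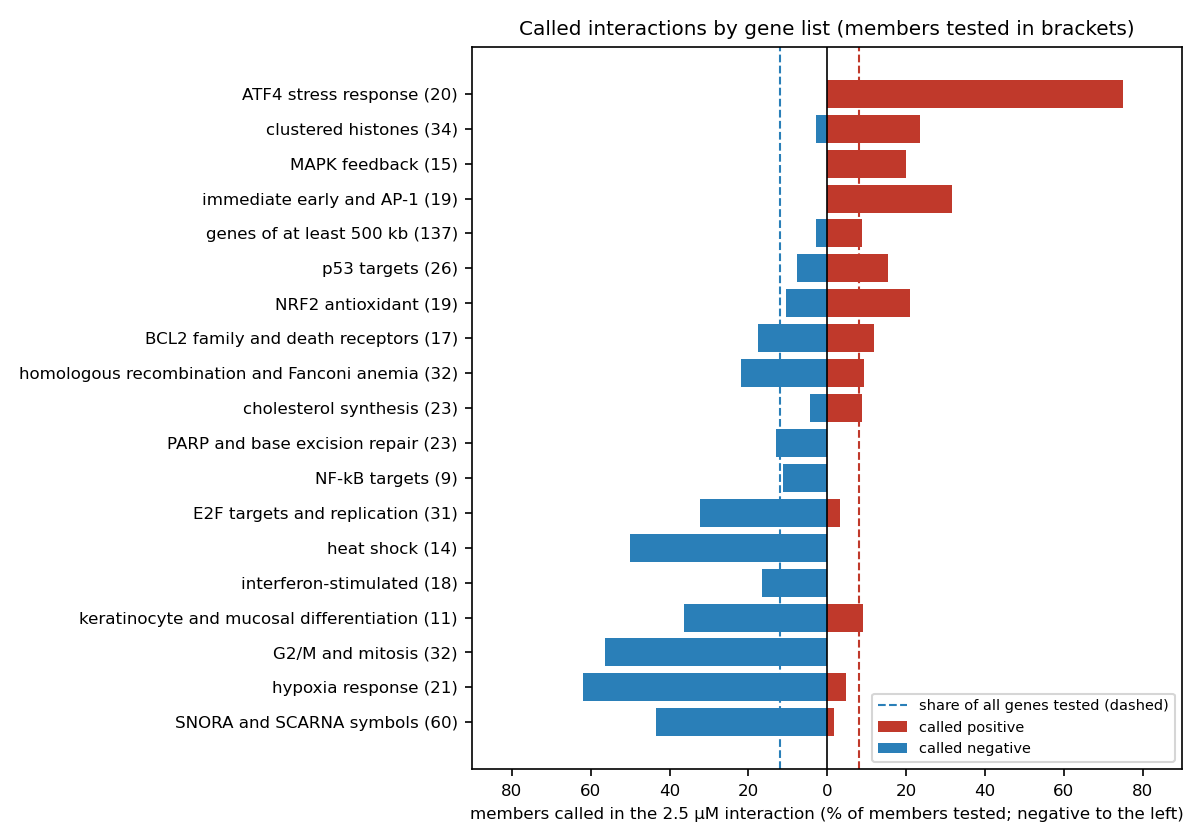
Share of the tested members of each gene list called positive (right) or negative (left) in the interaction at 2.5 µM CDDP in MDA-MB-468 (x axis, percent), ordered by median interaction, with the share of all genes tested dashed. The ATF4 list has 15 of 20 members to the right and none to the left, while the hypoxia (13 of 21), G2/M (18 of 32) and SNORA and SCARNA (26 of 60) lists lie mostly to the left.

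Genes of G2 and mitosis had negative interactions, with 18 of 32 called and 0 positive, against 12% and 8.14% of all genes, and a median interaction of -0.39. After olaparib alone 24 members were higher and 0 lower, and after CDDP alone 3 were higher and 16 lower (no fold limit). The median change was 0.43 after olaparib, -0.22 after CDDP and -0.15 after the combination. In 16 of the 18 the olaparib group stood apart on the high side. KIF2C, a microtubule depolymerase of the mitotic spindle, had 810, 751 and 716 adjusted read counts in the control, 1369, 1404 and 1318 after olaparib, 1060, 984 and 1047 after CDDP, and 992, 929 and 894 after the combination. The olaparib libraries were highest without overlap, and the interaction was -0.98 (standard error 0.09, adjusted p = 4.77e-12, limma).

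CCNB1, the cyclin that drives entry into mitosis, rose after olaparib alone, from 1064 to 1127 adjusted read counts in the control libraries to 1691 to 1719. It was at 653 to 720 after CDDP and 632 to 696 after the combination, which overlapped each other, and the interaction was -0.69 (adjusted p = 9.01e-08, limma). PLK1, a mitotic kinase, had 297 to 372 in the control, 410 to 588 after olaparib, 188 to 211 after CDDP and 127 to 163 after the combination. Olaparib raised PLK1 in the absence of CDDP (log2 change 0.54) and lowered it in its presence (-0.48), both at an adjusted p under the threshold (0.000623 and 0.00454, limma). The same reversal was found for AURKB, the kinase of the chromosomal passenger complex, with 0.68 and -0.38 and an interaction of -1.06. CDK1, the kinase partner of cyclin B, had an interaction of -0.75, CCNB2 -0.91 and TOP2A, the topoisomerase of mitotic chromosomes, -0.57.

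The letters TTTGAA, known as the CHR element of genes expressed in G2 and mitosis, were found in the promoters of 17 of 28 matched members of this list and of 1008 of 10213 tested genes (9.87%). They were in 6 of the 14 called members and in 11 of the 14 that were not called. The share among all called negative genes was 9.41%, close to that of all tested genes. The promoter of CCNB2 (chr15:59104896-59105195, plus strand) is shown as an example, with the match, 29 bases before the start, in capitals.
CCNB2: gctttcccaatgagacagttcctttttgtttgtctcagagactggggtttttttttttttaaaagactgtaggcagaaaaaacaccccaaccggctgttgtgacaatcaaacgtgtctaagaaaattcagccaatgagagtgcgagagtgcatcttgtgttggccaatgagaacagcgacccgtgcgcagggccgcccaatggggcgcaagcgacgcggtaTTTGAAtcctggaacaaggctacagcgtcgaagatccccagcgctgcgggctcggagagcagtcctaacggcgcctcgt

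Of 31 E2F target and replication genes, 10 were negative and 1 positive, against 12% and 8.14% of all genes, with a median interaction of -0.16. In all 10 the rule named the control, on the low side, but the other groups were not alike. The median change of the list was 0.12 after olaparib, 0.76 after CDDP and 0.68 after the combination. In CDT1 the olaparib mean (724) lay nearer the control (620) than CDDP (1391) or the combination (1196). RRM2, the inducible subunit of ribonucleotide reductase, had 1862, 1885 and 2029 adjusted read counts in the control, 3658, 3881 and 3426 after olaparib, 5764, 5622 and 5608 after CDDP, and 6458, 6265 and 5695 after the combination. CDDP and the combination overlapped at the top, and the interaction was -0.81 (standard error 0.07, adjusted p = 2.25e-12, limma). Of 32 homologous recombination and Fanconi anemia genes 7 were negative and 3 positive, with a median interaction of 0.005, close to that of all genes. FANCG, a subunit of the Fanconi anemia core complex, had 187 to 225 in the control, 355 to 405 after olaparib, 401 to 488 after CDDP and 367 to 439 after the combination, with an interaction of -1.07 (adjusted p = 5.76e-07, limma). The ubiquitin-conjugating enzyme gene UBE2T had an interaction of -0.79.

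The list members with positive interactions were CLSPN, BRCA2, PALB2 and RBBP8. CLSPN, which encodes the checkpoint mediator claspin, had 659 to 742 adjusted read counts in the control, 688 to 829 after olaparib, 1138 to 1232 after CDDP and 1634 to 1719 after the combination. Its combination libraries were highest without overlap, and the interaction was 0.39 (adjusted p = 0.00429, limma). BRCA2, a mediator of homologous recombination, had 436 to 488 in the control, 498 to 519 after olaparib, 616 to 735 after CDDP and 934 to 969 after the combination, with an interaction of 0.36 (adjusted p = 0.0157, limma) that lost its call under 2 of 23 alternatives. PALB2 (0.95), the partner of BRCA2, and RBBP8 (0.70), which starts DNA end resection, were low after olaparib alone, and PALB2 had a mean of 123 with both drugs, below its 151 in the control. BRCA1 itself had means of 309, 347, 433 and 555 in the control, olaparib, CDDP and combination groups and an interaction of 0.20 that was not called (adjusted p = 0.264, limma). The olaparib target genes PARP1 (-0.26, adjusted p = 0.0503) and PARP2 (-0.03, adjusted p = 0.895, limma) were not called either. PARP1 was called under 11 of 23 alternatives. Of 23 PARP and base excision repair genes 3 were called, all negative, a share near the 12% of all genes: the glycosylases MPG (-0.79), NEIL2 (-0.76) and NTHL1 (-0.70).

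**Figure D4:**
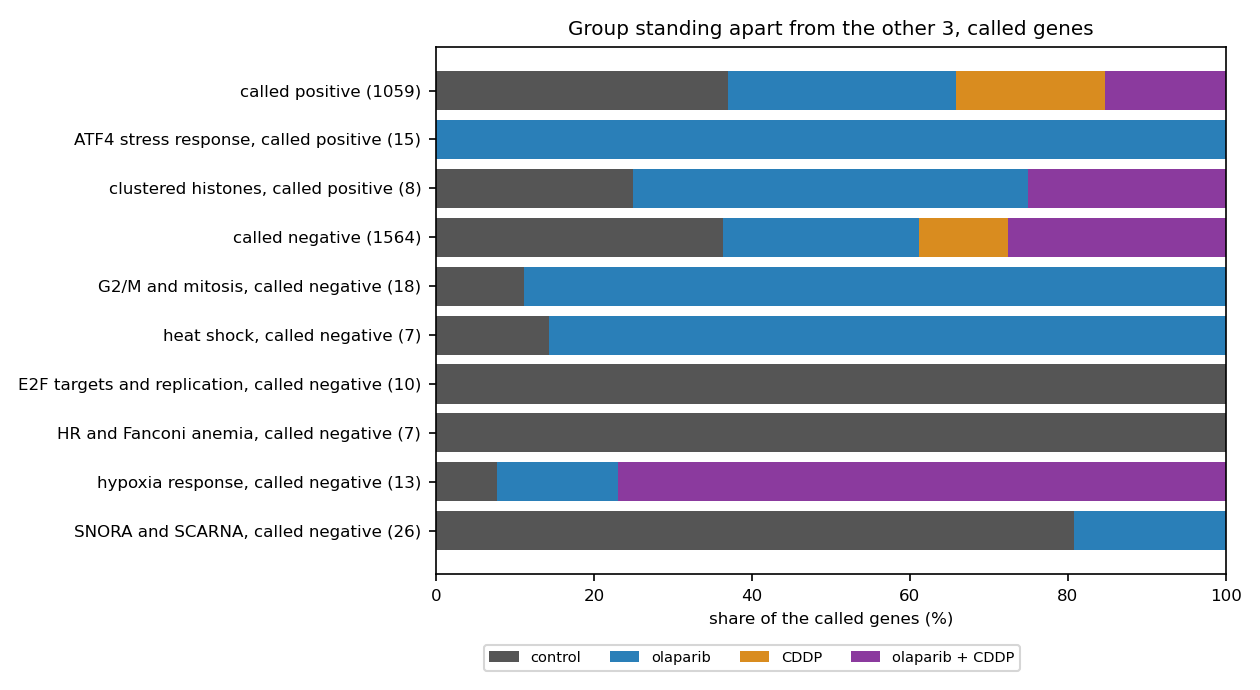
Share (x axis, percent) of called genes in which the control, olaparib, CDDP or olaparib + CDDP libraries stood apart from the other 3 group means, for all called genes and within gene lists, with the number of called genes in brackets. The olaparib group stands apart in all 15 positive ATF4 genes, the control in all 10 negative E2F genes, and the combination in 10 of 13 negative hypoxia genes. A group is named for every gene, also where the other 3 are not alike.

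Among hypoxia-response genes, negative interactions with a low combination group were frequent. These genes are targets of the HIF transcription factors and serve glycolysis, pH control and angiogenesis. Of 21 tested, 13 were negative and 1 positive, against 12% and 8.14% of all genes, with a median interaction of -0.55. The combination stood apart on the low side in 10 of the 13, against 27.6% of all negative genes, and the olaparib group stood apart in 2 and the control in 1. NDRG1, a stress-responsive gene induced by low oxygen, had 1519, 1501 and 1502 adjusted read counts in the control, 1371, 1310 and 1417 after olaparib, 1288, 1329 and 1287 after CDDP, and 588, 587 and 569 after the combination. The combination libraries were the lowest by a wide gap, and the interaction was -1.02 (standard error 0.08, adjusted p = 1.32e-14, limma). ANGPTL4, a secreted lipase inhibitor, had 301 to 351 in the control, 282 to 384 after olaparib, 198 to 217 after CDDP and 85.7 to 109 after the combination, with an interaction of -1.13 (adjusted p = 2.61e-05, limma). STC1, a secreted glycoprotein, had 958 to 1083, 1067 to 1120, 791 to 837 and 452 to 516 in the same order, with an interaction of -0.85. The glycolytic genes PGK1 (-0.71) and LDHA (-0.55) and the pyruvate dehydrogenase kinase PDK1 (-0.87) were called too, and PFKFB4, a regulator of glycolytic flux, had the lowest interaction of the list (-1.74). VEGFA, the angiogenic growth factor, was the positive member (0.49), with 257 to 283 after olaparib and 356 to 391 in the other 9 libraries.

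Across all genes, 407 negative and 145 positive interactions had the combination standing apart while the other 3 group means lay within 0.5 log2 of each other, at a mean of at least 30 adjusted read counts. The following genes were picked from the 10 leading genes in each direction of this set after their values were seen. The lowest interaction of the set was that of SNORD13 (-1.40, adjusted p = 1.56e-10, limma). SNORD13 had means of 1739, 2360, 2325 and 1169 adjusted read counts in the control, olaparib, CDDP and combination groups. CD9, a tetraspanin of the cell surface (chromosome 12), had 2004, 2722 and 2990 adjusted read counts in the control, 3163, 3118 and 2305 after olaparib, 2379, 2565 and 2375 after CDDP, and 1424, 1086 and 1093 after the combination. Only the combination was set apart, and the interaction was -1.19 (standard error 0.15, adjusted p = 3.26e-08, limma). H2AFZ, the gene of the histone variant H2A.Z, had 8480 to 10260 in the control, 11740 to 13550 after olaparib, 11420 to 12140 after CDDP and 6886 to 8058 after the combination, with an interaction of -1.10. EP300, a histone acetyltransferase, was the most highly expressed of the 10 leading positive genes, with means of 505, 403, 369 and 557 in the 4 groups and an interaction of 0.92 (adjusted p = 2.53e-08, limma). Each drug alone lowered EP300, while its combination and control libraries overlapped (log2 change 0.14, adjusted p = 0.200, limma). The keratins KRT8 (-0.97) and KRT19 (-0.73), used as epithelial markers, were lowest with both drugs as well.

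Heat shock genes, which encode chaperones, were negative in 7 of 14 and positive in 0, against 12% and 8.14% of all genes, with the olaparib group high in 6 of the 7. HSPA1A had 1719 to 1985 adjusted read counts in the control, 2391 to 2833 after olaparib, 1474 to 1671 after CDDP and 1093 to 1209 after the combination, with no overlap between groups and an interaction of -0.94 (adjusted p = 2.25e-12, limma). Reads may be split between HSPA1A and its near-identical copy HSPA1B, which was not called (-0.26, adjusted p = 0.154, limma). HSPA1B had means of 289 after CDDP and 298 after the combination. The constitutive chaperone gene HSPA8 had an interaction of -0.78. 

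The remaining lists had fewer or mixed calls, to be read against 8.14% positive and 12% negative of all genes. Of 26 p53 targets 4 were positive and 2 negative, the positive ones being SESN2 (1.11), the BH3-only death gene PMAIP1 (0.67), the growth arrest gene GADD45A (0.53) and BTG1 (0.43), and the negative ones the DNA damage binding gene DDB2 (-0.67) and PLK2 (-0.42). Among 17 BCL2 family and death receptor genes, PMAIP1 and HRK (0.62) were positive and the proapoptotic genes BAD (-0.98), BIK (-0.88) and BID (-0.39) negative. Of 19 NRF2 antioxidant genes 4 were positive and 2 negative. The positive ones were SLC7A11 (1.98), counted in the ATF4 list as well, AKR1C2 (0.87), heme oxygenase HMOX1 (0.63) and thioredoxin reductase TXNRD1 (0.36). The negative ones were the ferritin heavy chain gene FTH1 (-0.52) and PIR (-0.50). Of 18 interferon-stimulated genes IFIT1 (-1.58), ISG15 (-1.13) and BST2 (-0.33) were negative and 0 positive. BST2 kept its call under only 11 of 23 alternatives and IFIT1, with group means of 5.94 to 18.1, under 12 of 22. Of 11 differentiation genes 4 were negative, with KRT6B (-1.11) and KRT16 (-0.81) the lowest, and 1 positive. Cholesterol synthesis genes had 2 positive calls, SC5D (0.40) and SQLE (0.34), and 1 negative of 23, near or below the shares of all genes. Of 9 NF-κB targets only TNFAIP2 (-0.62) was called. Among the marker lists, the mesenchymal marker VIM (-1.40) was called at a level of 7.99 to 53.8 adjusted read counts, and the epithelial list had 2 negative calls, KRT8 and KRT19, and 1 positive, EGFR (0.53), of 6.

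At the lower CDDP dose of 1 µM the same calculation called 1591 genes (12.2%), 672 positive (5.16%) and 919 negative (7.06%). It uses the same control and olaparib libraries, so that likeness of both interactions is partly built in, and only the values are given side by side. The ATF4 list had 17 of 20 positive calls at 1 µM and 15 at 2.5 µM, the G2/M list 17 and 18 negative calls of 32, and the hypoxia list 5 and 13 negative calls of 21, where the difference between doses was called in 2 of 21 members. CHAC1 had interactions of 3.15 at 1 µM and 2.82 at 2.5 µM, and CTGF 3.03 and 3.12.

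The difference between both doses rests only on the CDDP and combination libraries of each dose and was called for 583 genes (4.48%), 213 higher (1.64%) and 370 lower (2.84%) at 2.5 µM. NDRG1 had 1445, 1439 and 1498 adjusted read counts after 1 µM CDDP and 1120, 1245 and 1257 with olaparib added, and its interaction was -0.13 at 1 µM and -1.02 at 2.5 µM, a difference of -0.89 (adjusted p = 3.57e-11, limma). STC1 (-0.41), HSPA1A (-0.61) and AURKB (-0.69) also had significantly lower interactions at 2.5 µM. SNAR-E had 34.5 to 55.1 adjusted read counts after 1 µM CDDP and 39.1 to 45.1 with olaparib added, and its interaction of 0.10 differed from 1.67 at 2.5 µM by 1.57 (adjusted p = 0.00167, limma). In the SNORA and SCARNA list 8 of 60 members had a significantly higher interaction at 2.5 µM and 0 a lower one, among them SNORA27 (-3.32 at 1 µM and -1.92 at 2.5 µM). The difference was not called for any of CHAC1 (adjusted p = 0.403), CTGF (0.939) and SLC7A11 (0.985, limma).

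The corresponding comparison in parental SUM1315 cells, a BRCA1 mutant triple negative line, used 8 µM olaparib and 4 µM CDDP. Cell line and doses differ together and cannot be told apart, and which libraries shared a sequencing batch is not stated, so only differences measured within each line were compared. In a fit of all 54 libraries the interaction differed between the lines for 1464 of 14460 genes (10.1%), 704 higher (4.87%) and 760 lower (5.26%) in MDA-MB-468. Interactions of opposite sign were found for SLC7A11, with 1.98 in MDA-MB-468 and -0.39 in SUM1315, where it was not called (adjusted p = 0.120), a difference of 2.37 (adjusted p = 1.43e-08, limma). CHAC1 was positive in both, with 2.82 and 1.26, and the difference of 1.56 was called (adjusted p = 0.000522, limma). Over the ATF4 list the median interaction was 0.94 and 0.82, with 11 of 20 members called positive in SUM1315 and the difference called in 6. In SUM1315 the interaction was called for 3491 of 14460 genes (24.1%), 1603 positive (11.1%) and 1888 negative (13.1%), in the fit of all 54 libraries. The same fit called 1288 of 14460 genes in MDA-MB-468, 498 positive and 790 negative. The MDA-MB-468 calls given earlier, those in gene lists included, came from a fit of that line alone. They are therefore not directly comparable with the SUM1315 calls given here and below.

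The 3 genes with the smallest p of the line difference were PEG10, NDRG1 and MT2A, and their differences are given as a description. PEG10, a retrotransposon-derived gene, had 2193 to 2255 adjusted read counts in the MDA-MB-468 control, 1134 to 1252 after olaparib, 1113 to 1232 after CDDP and 1330 to 1431 after the combination. In SUM1315 it had 186 to 218 in the control, 386 to 420 after olaparib, 841 to 900 after CDDP and 637 to 668 after the combination. Its interaction was thus 1.11 in MDA-MB-468, where each drug lowered it, and -1.37 in SUM1315, where each drug raised it. NDRG1 had -1.02 and 0.59, and the metallothionein gene MT2A, which binds heavy metals, -0.24 and -1.23. G2/M genes were called negative in 28 of 32 members in SUM1315, against 13.1% of all genes, with a median of -0.93, and 18 of them had a significantly higher interaction in MDA-MB-468. For the SNORA and SCARNA list the median was -1.36 in MDA-MB-468 and 0.42 in SUM1315, with 11 of 60 members significantly lower in MDA-MB-468 and 0 higher.

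**Figure D5:**
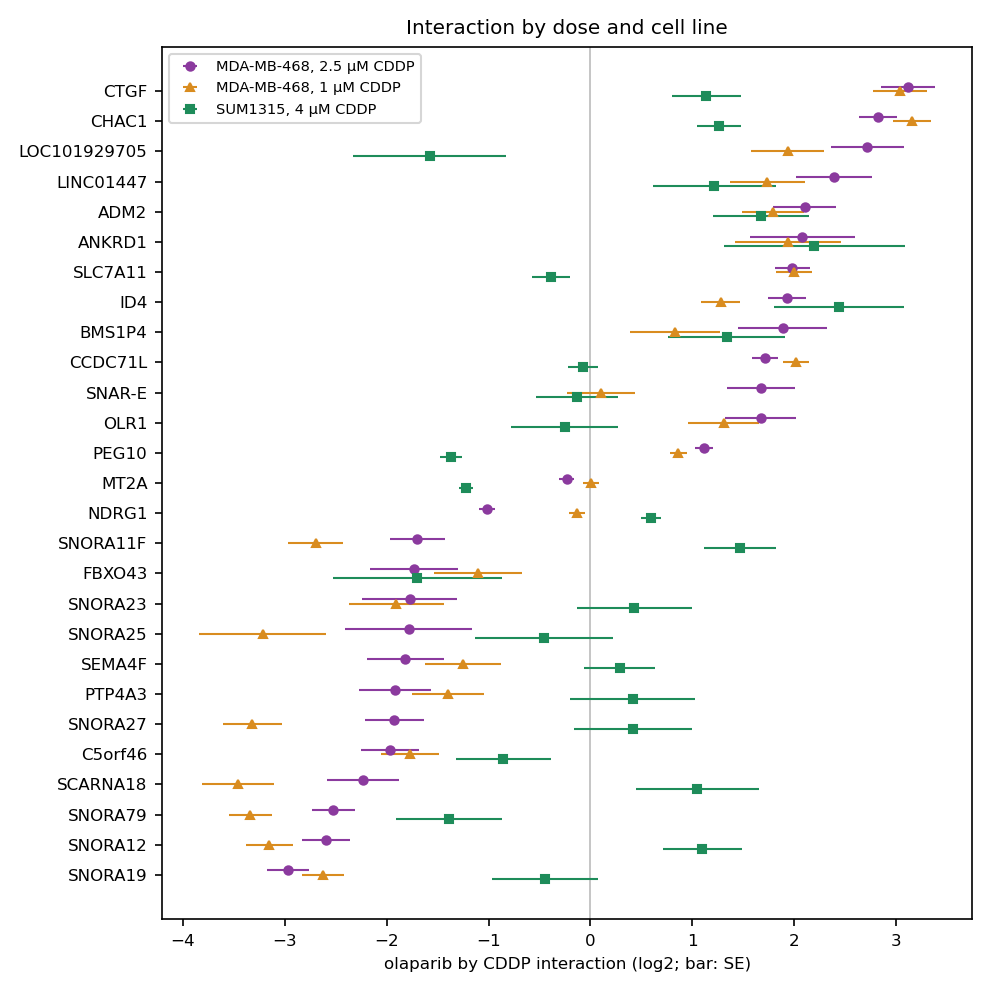
Olaparib by CDDP interaction (x axis, log2, bar: standard error) of the 24 genes named by size and the 3 named by line difference for MDA-MB-468 at 2.5 µM CDDP (circles), MDA-MB-468 at 1 µM CDDP (triangles, same control and olaparib libraries) and SUM1315 at 4 µM CDDP (squares). The genes are ordered by the interaction at 2.5 µM. SLC7A11, CCDC71L, NDRG1, SNORA12 and SNORA11F have squares on the other side of 0 from the circles.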

How the data were processed

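QuantSeq 3′ mRNA libraries of total RNA were aligned by the authors to hg38 and analysed with edgeR. The submitters' processing notes name CASAVA 1.8.2, STAR and HTSeq, and counting settings are not given in the sources used here. The signal values that the authors deposited are reads per gene adjusted to a common library size within each condition, so low values carry part of their condition's mean. Inverting this gave back 100% of 1483380 values, and the recovered whole reads gave the depth (6174804 to 9268162 reads per library). The spread between libraries of a group was above sampling noise (chi-square divided by degrees of freedom, 2.41 to 5.64). The series text gives 2 µM for the higher CDDP dose, while the library titles and the methods give 2.5 µM.

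Because the values were not whole, the planned edgeR count test became an alternative. All 27 MDA-MB-468 libraries in 9 conditions, those of olaparib-resistant cells included, were fitted with limma 3.58.1 in R 4.3.3. The fit was on log2 of the value plus 1, with an intensity trend, keeping genes with at least 10 in at least 3 libraries. With only the 18 parental libraries, 2637 interactions were called at 2.5 µM. Fold changes are on this scale, which understates changes of low genes. The line difference was fitted on all 54 libraries. Genes named by size were the 12 largest positive and 12 largest negative called interactions at a mean of at least 30. Also named were called members of gene lists, PARP1, PARP2 and BRCA1, and the 3 line difference genes of smallest p. Members and lists were chosen with earlier results of these data known. The dose difference, the combination against control, the small RNA lists, the TGATGNAA motif and the group standing apart were added after seeing the values. Alternatives were the pseudocount, the filter, edgeR 4.0.16, DESeq2 1.42.0, its size factors, the samples fitted, a replicate block and leaving out each library. Positions are those of GENCODE in GRCh38 (24243 names matched as current and 1029 as older symbols, 2196 not matched), and promoters are from RefSeq (10217 of 13012 tested genes matched). Of the motifs searched, TGACGTCA was found in 3.9% of positive, 2.79% of negative and 3.32% of tested promoters, TGAGTCA in 2.84%, 3.11% and 2.94%, TTCGCGCC in 2.36%, 1.67% and 1.71%, TGATGCAAT in 0.355%, 0.159% and 0.108%, and the NF-κB site in 0.118%, 0.239% and 0.206%. No gene name began with MT-. The 2 tables of the authors' own comparisons, with log2 fold changes, p-values and false discovery rates, were not used. The fit was tested on simulated data for the interaction at 2.5 µM (12711 genes): it called 34 of 50 genes with a simulated 2-fold positive and 28 of 50 with a 2-fold negative interaction, 50 of 50 in each direction at 4-fold, and 5 of 12511 without one. Recovery at 2-fold fell short of what was first required, and the requirement was then lowered to apply at 4-fold only. The simulation had a fixed spread, no single-drug changes and few genes with an interaction, so its recovery may differ from that in the data. Simulated interactions of 2-fold were often missed, and a gene that was not called may have an interaction. Some genes are not reported here.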

Additional observations from a re-analysis of the deposited data

Results flagged for a closer look

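The interaction differed between MDA-MB-468 at 2.5 µM CDDP and SUM1315 at 4 µM CDDP for 1464 genes by the test of the difference itself (limma with Benjamini-Hochberg adjustment). The share of all genes was 10.1%. PEG10, NDRG1 and MT2A were named for the smallest p of this difference. Of the 24 genes named by size 11 were among them, and since they were chosen for large interactions in MDA-MB-468, which enter the difference, this count is a description. The interaction was higher in MDA-MB-468 by 4.29 for LOC101929705, 2.48 for PEG10, 2.37 for SLC7A11, 1.98 for CTGF, 1.81 for SNAR-E, 1.78 for CCDC71L, 1.56 for CHAC1 and 0.99 for MT2A (log2). Of these, LOC101929705 had at most 24.6 adjusted read counts in the 12 SUM1315 libraries. The difference was negative, with -3.69 for SNORA12, -3.28 for SCARNA18, -3.17 for SNORA11F, -2.52 for SNORA19, -2.10 for SEMA4F and -1.61 for NDRG1. Of the 121 other named genes, 34 differed, 25 higher and 9 lower in MDA-MB-468.

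Within MDA-MB-468 the interaction differed between 2.5 and 1 µM CDDP for 583 genes (limma). The share of all genes was 4.48%. Of the 24 genes named by size, chosen for the interaction at 2.5 µM that enters this difference, 6 were among them, as was NDRG1: the difference (2.5 minus 1 µM, log2) was 1.57 for SNAR-E, 1.39 for SNORA27, 1.23 for SCARNA18, 0.99 for SNORA11F, 0.82 for SNORA79, 0.65 for ID4 and -0.89 for NDRG1. Of the 121 other named genes, 16 differed, 3 higher and 13 lower at 2.5 µM.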

How the results depend on the processing

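The count of called interactions at 2.5 µM stayed within 1.5 times of 2623 under each alternative fitted within MDA-MB-468 that kept the threshold. It ran from 2178 when a library was left out to 3100 with edgeR and TMM on recovered reads. The fit of all 54 libraries, used for the line difference, called only 1288 of 14460 genes (498 positive, 790 negative). The count of 2623 thus depends on which libraries set the spread. A limit of 2-fold left 269 of the 2623 (138 higher, 131 lower). The same limit left 205 (112 and 93) at 1 µM and 727 (299 and 428) for the line difference. Of 148 named genes, 112 kept call and direction under all their alternatives. PARP2, not called, turned to 0.053 on the linear scale, and leaving out a library gave -0.057 to 0.002, the latter without control replicate 2. Without a fold limit the drug contrasts gave 2802 (1617 higher, 1185 lower) for olaparib alone, 3269 (1737, 1532) for CDDP alone, 1551 (602, 949) for olaparib added to CDDP and 3010 (1310, 1700) for CDDP added to olaparib. The 57 genes for olaparib added to CDDP became 91 with edgeR and TMM, 92 with edgeR and DESeq2 size factors, 101 without a filter and 36 at a pseudocount of 5. Its 17 higher became 27 with DESeq2, 29 and 31 with edgeR, 10 at a filter of 30 and 11 at a pseudocount of 5, and its 40 lower became 63 with edgeR and DESeq2 size factors, 83 without a filter and 25 at a pseudocount of 5. The 85 higher with olaparib alone became 51 when only the groups compared were fitted and 56 at a pseudocount of 5. The cause was not tested. Leaving out a library gave 13 to 29 higher and 33 to 63 lower for olaparib added to CDDP. Depth limits genes of few reads, whose folds are imprecise. Same-numbered libraries correlated at -0.0468 to 0.0263 after removing group means, so the numbers do not pair them, and a replicate block gave 2566 calls at 2.5 µM.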
